A study of Mus musculus with 12 samples.

Results

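The p53 pathway was examined in 6 pre-B cell lines carrying an empty vector (EV) and 6 lines transformed by BCR-ABL1, a constitutively active kinase found in Philadelphia chromosome-positive leukemia. The list holds 36 genes for p53, its regulators and its direct targets, found by Ensembl identifier in a table of 51826 mouse genes. Inhibitors of cyclin-dependent kinases and the BCL2 family were left out of the 36. Of these genes, 33 passed the filter on low counts and were tested, and Perp, Dram1 and Trp73 did not pass.

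Bone marrow of 2 C57BL/6 mice was grown for 7 days with interleukin 7 (IL7), the cytokine on which cultured B cell precursors depend, and the cells, labelled Pro-/pre B, were then transduced. Each mouse gave 3 EV lines, made with the vector pMIG, and 3 BCR-ABL1 lines, made with a retroviral vector for the kinase. All 12 lines stayed in IL7 for a further 48 hours. BCR-ABL1 lines then grew for 1 week without IL7. EV lines were given IL7 for a similar time and sorted for GFP. Withdrawal of IL7 and BCR-ABL1 therefore coincided in every line and cannot be told apart, and no sort is stated for the BCR-ABL1 lines. Lines are named by condition, mouse number and letter, so that EV 2C is an EV line of mouse 2. Because the 6 lines of a condition came from only 2 mice, p-values measure the spread between lines.

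The transcription factor p53 is kept at a low level in unstressed cells by the ubiquitin ligase Mdm2 and its relative Mdm4. DNA damage signals and the tumour suppressor p19Arf, encoded by Cdkn2a, release p53 from Mdm2, and p53 then binds a response element made of a pair of decamers. Its targets arrest the cell cycle, repair DNA, change metabolism, drive apoptosis and, through Mdm2 and others, feed back on p53. In B cell precursors transformed by Abl kinases, loss of the Arf and p53 axis is a known step towards full transformation.

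The response element was looked for first, since it is the sequence by which a gene can be a direct target. RefSeq promoters of GRCm38.p6, from 250 bases before to 50 bases after each start site, were found for 30 of the 36 genes. Trp53inp1, Zmat3, Perp, Rrm2b, Xpc and Ddb2 had no entry. A p53 response element of 20 bases, with both decamers adjacent and at most 2 mismatches outside the core C and G of each, was searched on both strands. It was present in promoters of 3 of 30 genes (10%) and of 106 of 27025 genes in all (0.392%). The 3 windows are shown because they carry it, written 5′ to 3′ on the strand of the gene, with the response element in capitals.
Ccng1, chr11:40755237-40755536, minus strand: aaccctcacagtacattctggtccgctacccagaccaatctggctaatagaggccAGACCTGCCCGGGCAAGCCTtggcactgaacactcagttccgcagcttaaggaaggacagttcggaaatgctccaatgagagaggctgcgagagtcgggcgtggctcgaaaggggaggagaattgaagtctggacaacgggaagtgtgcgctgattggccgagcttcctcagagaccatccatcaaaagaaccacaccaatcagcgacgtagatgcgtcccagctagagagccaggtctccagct
Ckap2, chr8:22185770-22186069, minus strand: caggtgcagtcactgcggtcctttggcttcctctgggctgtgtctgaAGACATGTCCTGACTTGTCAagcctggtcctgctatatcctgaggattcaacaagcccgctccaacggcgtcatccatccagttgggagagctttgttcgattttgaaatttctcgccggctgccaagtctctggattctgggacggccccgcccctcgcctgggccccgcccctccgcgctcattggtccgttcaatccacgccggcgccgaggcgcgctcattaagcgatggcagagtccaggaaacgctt
Trp73, chr4:154097124-154097423, minus strand: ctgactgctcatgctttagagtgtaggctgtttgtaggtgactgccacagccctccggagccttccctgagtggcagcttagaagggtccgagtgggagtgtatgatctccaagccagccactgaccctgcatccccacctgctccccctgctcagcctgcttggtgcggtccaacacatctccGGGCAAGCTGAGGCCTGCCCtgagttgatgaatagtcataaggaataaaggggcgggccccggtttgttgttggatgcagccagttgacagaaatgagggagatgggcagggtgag
The element of Ccng1 had 1 mismatch and lay at positions -195 to -176 from the start site. That of Ckap2 had 2 mismatches and lay at -203 to -184, and that of Trp73 had 2 mismatches and lay at -66 to -47. For comparison, the promoter window of Cdkn1a at chr17:29090729-29091028 on the plus strand, outside the list, held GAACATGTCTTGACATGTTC. The other window of Cdkn1a held no element. A window of Gtse1 and a window of Rps27l, also outside the list, each held an element with 1 mismatch. Elements with a spacer, in introns or further upstream would not be found in these windows.

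Total counts were 34791011 to 64547911 in EV lines and 45230023 to 66011225 in BCR-ABL1 lines. Levels are given as CPM, counts scaled to a common library size with TMM factors, and 3 counts in a line were treated as the floor. The B lineage label was checked with 10 markers, all of them tested, whose summed level in CPM was 2529 to 4640 for EV and 2755 to 3512 for BCR-ABL1 lines, with 0 called by the glmTreat test given below or by DESeq2 and 0 at an unadjusted p under 0.05. Ebf1 was lower against no change (log2 fold change -0.28), and within mouse 1 Vpreb1, Igll1 and Blnk were called higher (log2 fold changes 1.51, 1.19 and 1.05), the effect on Vpreb1 and Igll1 differing between the mice by interaction. Sums of 10 myeloid markers were 0.216 to 1.53 CPM and 1.78 to 4.43 CPM, carried by Fcgr3, which was called higher, with S100a8, S100a9 and Elane at or near 0. Sums of 10 T and NK markers were 3.59 to 37.5 CPM and 72.4 to 87.5 CPM, carried by Cd2, which was called higher, with Cd3e and Trbc2 at or near 0 and Cd3d called lower (0.234 to 0.644 CPM and 0.0304 to 0.116 CPM). Sums of 8 erythroid markers were 1.28 to 6.83 CPM and 5.94 to 12.7 CPM, with Hbb-bt called higher and both Hba genes at 0, those of 8 stromal markers at most 2.02 CPM and those of 8 mast cell and basophil markers at most 0.307 CPM. The part of these in the results below was not tested. EV 2C stood apart: its log2 CPM differed from the other EV lines of mouse 2 by a mean of 0.67 over all tested genes and of 0.90 over the 33 tested p53 pathway genes, against at most 0.50 and 0.61 in the other 11 lines. EV 2C was nearer to the BCR-ABL1 lines for 56.2% of all tested genes and for 42.4% of the tested members. In the other EV lines these shares were 23% to 36.9% and 12.1% to 39.4%. Values without EV 2C are therefore given where they differ.

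BCR-ABL1 lines did not show a uniform shift of the pathway. A few targets rose, namely Eda2r, Phlda3, Zmat3, Psrc1, Aen and Ccng1. Trp53inp1 and Rrm2b fell, and p53 itself, Mdm2 and most other members passed no threshold of 1.5-fold. The calls of Aen, Trp53inp1 and Rrm2b changed in 7, 15 and 7 of 23 alternative settings. Differences were tested with edgeR's glmTreat, a quasi-likelihood test for changes beyond 1.5-fold, with Benjamini-Hochberg adjustment over all 15038 tested genes and a threshold of 0.05. Of the 33 genes, 6 were called higher and 2 lower (24.2%), whereas 12.5% of all tested genes were called, 5.99% higher and 6.49% lower. The fold change was positive for 21 members and negative for 12, with a median log2 fold change of 0.14 against -0.02 over all tested genes. These counts are descriptions, since Eda2r passed the low-count filter only through the BCR-ABL1 lines, as did Fas and Gadd45a in the fit of mouse 1 alone. In the fit of all 12 lines Fas and Gadd45a also needed the BCR-ABL1 lines to pass. EV lines of mouse 1 were near 0 for Fas, and EV 1B held 5 counts of Gadd45a. In a test against no change by edgeR's glmQLFTest, 11 members were called higher and 6 lower (51.5%), close to the 48.5% of all tested genes, of which 22.5% were higher and 25.9% lower. In bulk RNA, a change in the share of cells that express a gene and a change in RNA per cell cannot be told apart.

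**Figure D1:**
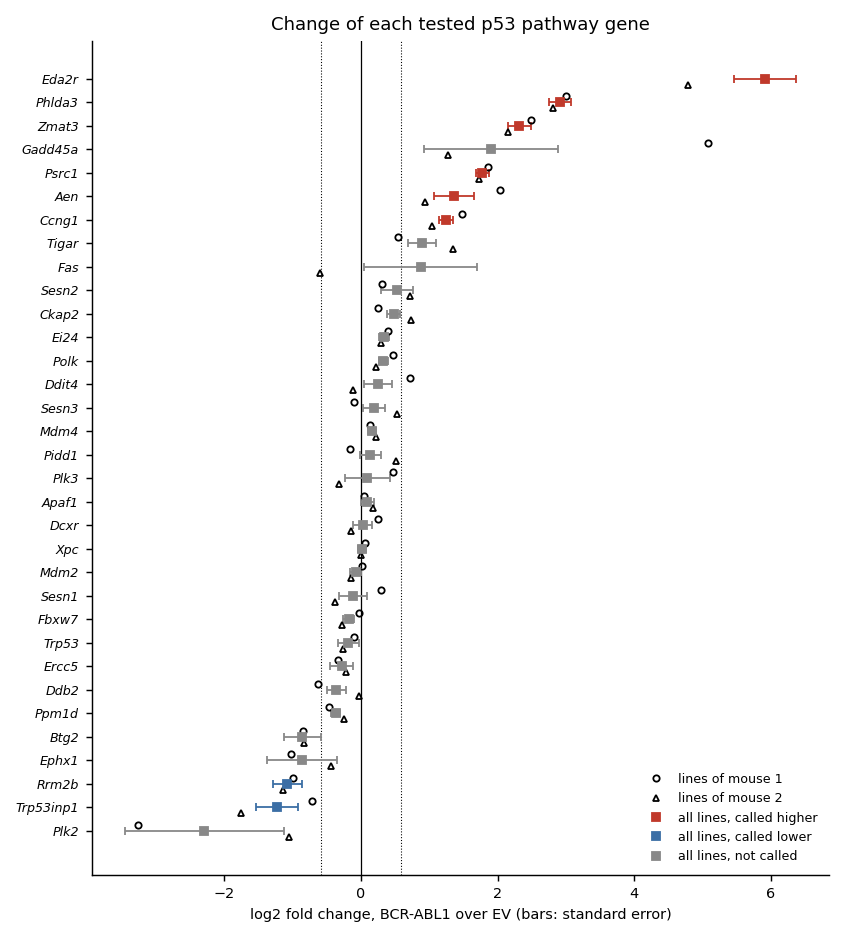
Log2 fold change of BCR-ABL1 over EV lines (x axis) for the 33 tested genes, ordered by size, with squares and bars for the fit of all 12 lines and its standard error, open symbols for the lines of each mouse, and dotted lines at 1.5-fold. Red squares mark the 6 genes called higher and blue squares the 2 called lower, and values of Eda2r and Fas in mouse 1 are not drawn because their EV lines had 3 counts or fewer.

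p53 and its regulators changed little, except for Ccng1. Of the 7 genes of this group, 6 were tested, 1 was called higher and 0 lower (16.7%, against 12.5% of all tested genes). Trp53, which encodes p53, was at 64.8 CPM in the lowest EV line, 82.3 CPM at the median and 92.8 CPM in the highest, and at 44.2, 76.2 and 82.5 CPM in the BCR-ABL1 lines. The conditions overlapped, and the lowest value belonged to BCR-ABL1 2A, the other BCR-ABL1 lines lying at 71.5 CPM or more. Its log2 fold change was -0.19 ± 0.16 (standard error, n = 6 lines per condition; edgeR adjusted p = 1). Mdm2, both a p53 target and its ubiquitin ligase, was at 74.8, 83.3 and 110 CPM in the EV lines and at 77.0, 80.9 and 85.8 CPM in the BCR-ABL1 lines. EV 2B alone lay above the others, and the log2 fold change was -0.08 ± 0.08 (edgeR adjusted p = 1). Mdm4, which inhibits p53 without degrading it, had a log2 fold change of 0.16 ± 0.06 and Fbxw7, the substrate receptor of a ubiquitin ligase for cyclin E and Myc, one of -0.18 ± 0.08, both with an edgeR adjusted p of 1. Against no change, Mdm4 was called higher (edgeR adjusted p = 0.0495).

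Ppm1d, a phosphatase that switches off p53 and its upstream kinases, was at 44.7, 51.9 and 57.8 CPM in the EV lines and at 37.4, 40.7 and 44.2 CPM in the BCR-ABL1 lines. Every BCR-ABL1 line lay below every EV line, but the log2 fold change of -0.37 ± 0.06 was inside 1.5-fold (glmTreat adjusted p = 1, against no change 0.00114). Ccng1 encodes cyclin G1, a p53 target that brings the phosphatase PP2A to Mdm2, and lies at chr11:40748552-40755311 on the minus strand (GRCm38). It was at 105, 126 and 168 CPM in the EV lines and at 283, 314 and 327 CPM in the BCR-ABL1 lines. No EV line reached the BCR-ABL1 range, and EV 2C was the highest of the EV lines. The means differed 2.37-fold, with a log2 fold change of 1.24 ± 0.10 (edgeR adjusted p = 0.000154). In the lines of mouse 1 the log2 fold change was 1.48 and in those of mouse 2 it was 1.05, and both passed the same test within the mouse.

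Trp73, the p53 relative p73, was close to the floor and not tested. It had 87 counts in EV 2C, 3 to 13 counts in the other EV lines and 1 to 3 counts in the BCR-ABL1 lines. The signal thus rested on EV 2C.

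The largest rises among the members were those of Eda2r, Phlda3 and Zmat3, grouped here with the targets of cell death and survival. Of 11 genes, 9 were tested, 4 were called higher and 1 lower (55.6%, against 12.5% of all tested genes), the 4 with Eda2r among them. This share is a description, since the group was drawn up with earlier results of these data known. Eda2r and Fas also needed the BCR-ABL1 lines to pass the filter. Eda2r, the ectodysplasin A2 receptor of the TNF receptor superfamily, is at chrX:97333840-97377216 on the minus strand. Its counts were 3, 1 and 1 in the EV lines of mouse 1 and 4, 16 and 4 in those of mouse 2, and lay between 197 and 530 in the BCR-ABL1 lines. In CPM this was 0.0144, 0.0643 and 0.318 against 4.09, 5.57 and 8.99. The gene was thus nearly silent in every EV line and expressed in every BCR-ABL1 line. Against a floor of 3 counts per line, the BCR-ABL1 lines of mouse 1 were at least 143-fold higher. The log2 fold change was 4.79 in mouse 2 and 5.91 ± 0.46 over all lines (edgeR adjusted p = 7.14e-05). These values are descriptions, since the gene passed the filter only through the BCR-ABL1 lines.

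Phlda3, which competes with Akt for membrane lipids and so restrains Akt signaling, is at chr1:135766119-135769136 on the plus strand. EV lines were at 2.22, 2.42 and 3.35 CPM and BCR-ABL1 lines at 15.5, 19.5 and 25.2 CPM. The lines of mouse 1 were the higher ones among the BCR-ABL1 lines, and the conditions were far apart in both mice. The means differed 7.53-fold, with a log2 fold change of 2.91 ± 0.16 (edgeR adjusted p = 2.02e-06). Zmat3, a zinc finger RNA-binding protein that regulates splicing downstream of p53, is at chr3:32334792-32366014 on the minus strand. It rose from 4.48, 7.14 and 7.90 CPM in the EV lines to 25.3, 33.7 and 41.2 CPM in the BCR-ABL1 lines. Again no line of either condition entered the range of the other. The means differed 5.0-fold, with a log2 fold change of 2.32 ± 0.16 (edgeR adjusted p = 6.59e-06). Both genes passed the test within each mouse, with log2 fold changes of 3.00 and 2.82 for Phlda3 and of 2.48 and 2.15 for Zmat3 in mouse 1 and mouse 2.

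Aen, an exonuclease that digests DNA during apoptosis, is at chr7:78895854-78911209 on the plus strand. EV lines were at 31.9, 42.8 and 120 CPM and BCR-ABL1 lines at 126, 141 and 152 CPM. EV 2C, at 120 CPM, came close to the BCR-ABL1 lines, whereas the other EV lines did not exceed 58.2 CPM. The log2 fold change was 1.36 ± 0.30 (edgeR adjusted p = 0.0276). It was 2.03 in mouse 1 and 0.93 in mouse 2, where it did not pass the test (edgeR adjusted p = 0.386). Without EV 2C it was 1.76 (edgeR adjusted p = 6.02e-05), and without EV 1A, 1B, 1C or 2B or BCR-ABL1 2A the adjusted p lay between 0.0522 and 0.0582.

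Trp53inp1 encodes a stress protein that promotes p53 phosphorylation, apoptosis and autophagy, and is at chr4:11156431-11174379 on the plus strand. It was at 367, 736 and 1269 CPM in the EV lines and at 281, 338 and 491 CPM in the BCR-ABL1 lines. EV 2A and 2B were the highest lines, those of mouse 1 stood at 694 to 745 CPM, and EV 2C, at 367 CPM, lay inside the BCR-ABL1 range. The fall, a log2 fold change of -1.23 ± 0.31 (edgeR adjusted p = 0.0421), was close to the threshold. It was not called within mouse 1 (-0.72, adjusted p = 0.0718) or mouse 2 (-1.75, adjusted p = 0.111). Removal of EV 2C gave -1.39 (edgeR adjusted p = 0.00499), whereas removal of any other line except BCR-ABL1 1B ended the call, with adjusted p between 0.0522 and 0.0875.

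Fas, the death receptor CD95, was low in all lines. EV lines of mouse 1 had 1 or 2 counts, those of mouse 2 had 54, 21 and 11 counts, and BCR-ABL1 lines had 21 to 47 counts. In mouse 1 the BCR-ABL1 lines were at least 17.9-fold higher than the floor of 3 counts per line, which is a description, since the gene passed the filter in that mouse only through the BCR-ABL1 lines. In mouse 2 the log2 fold change was -0.60 (edgeR adjusted p = 1). The other tested members of the group stayed inside 1.5-fold. Ei24, an endoplasmic reticulum protein with roles in apoptosis and autophagy, had a log2 fold change of 0.33 ± 0.07 and was higher only in the test against no change (edgeR adjusted p = 0.0037). Apaf1, the scaffold of the apoptosome, had a log2 fold change of 0.09 ± 0.09 and Pidd1, the platform on which caspase-2 is activated, one of 0.14 ± 0.16. Perp, a membrane protein of desmosomes, had at most 4 counts in any line, and Dram1, a lysosomal inducer of autophagy, had 4 to 8 counts in EV lines and 0 to 4 in BCR-ABL1 lines.

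**Figure D2:**
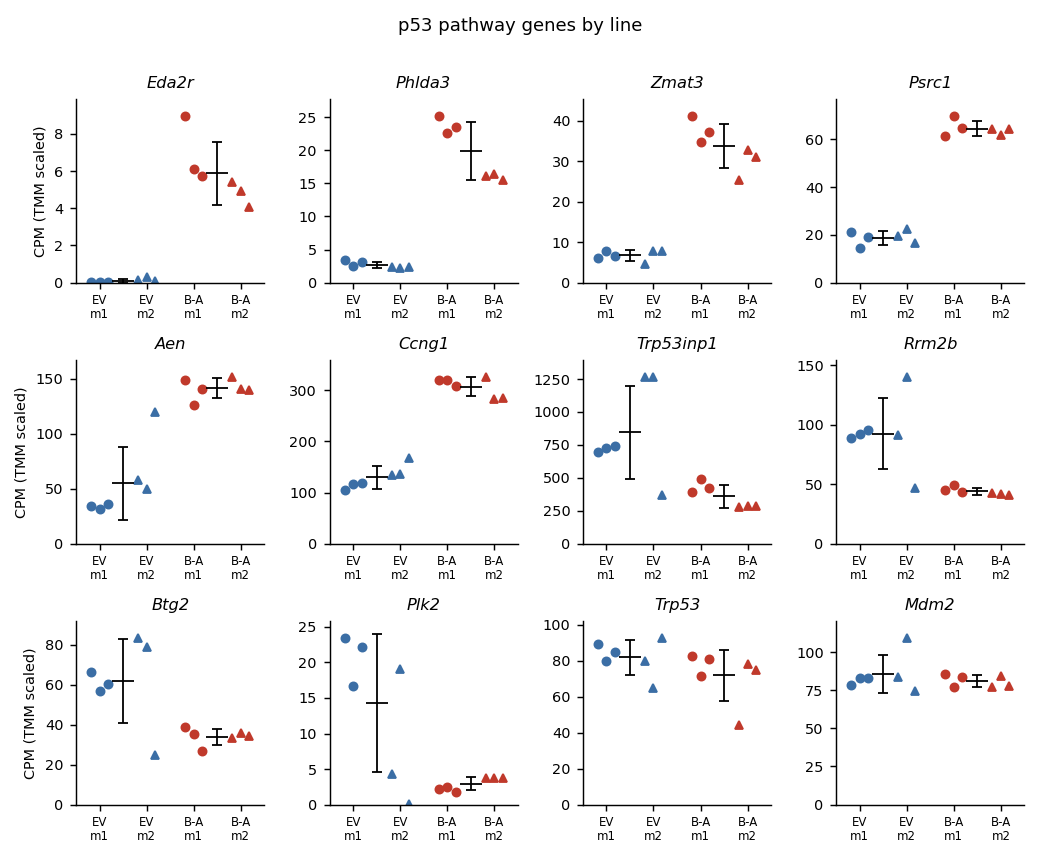
Level of 12 genes in each line, in CPM scaled by TMM from 0 (y axis), with circles for mouse 1, triangles for mouse 2, blue for EV, red for BCR-ABL1 (B-A), m1 and m2 for the mouse, and black bars for the mean ± SD of the 6 lines of a condition. Eda2r, Phlda3, Zmat3, Psrc1, Ccng1 and Aen separate the conditions without overlap. EV 2C, the last blue triangle, lies at 120 CPM for Aen, just below the BCR-ABL1 lines, and at 46.6 CPM for Rrm2b, inside their range.

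Among 7 stress and metabolic targets, all tested, 0 were called by glmTreat, where 12.5% of all tested genes were called, or by DESeq2. At an unadjusted glmTreat p under 0.05, 1 was higher. Against no change, 1 was called (14.3%, where 48.5% of all tested genes were called). The gene called against no change was Tigar, a bisphosphatase that lowers glycolytic flux, at 6.59, 12.2 and 13.5 CPM in the EV lines and 18.1, 20.4 and 21.8 CPM in the BCR-ABL1 lines. All BCR-ABL1 lines lay above all EV lines, and the log2 fold change was 0.90 ± 0.21 (glmTreat adjusted p = 0.113, against no change 0.00257). Sesn1, Sesn2 and Sesn3 encode sestrins, which restrain mTORC1 when amino acids are scarce. Their log2 fold changes were -0.11 ± 0.21, 0.52 ± 0.23 and 0.19 ± 0.15, with none past either test. Ddit4, another inhibitor of mTORC1, had log2 fold changes of 0.72 in mouse 1 and -0.11 in mouse 2 (edgeR adjusted p = 0.0613 and 1). Ephx1, which hydrolyses epoxides, was at 4.51, 24.4 and 38.1 CPM in the EV lines and 8.55, 12.5 and 18.1 CPM in the BCR-ABL1 lines. It fell in mouse 1 by 1.03 on the log2 scale (edgeR adjusted p = 0.000274), while in mouse 2 EV 2C, at 4.51 CPM, was below every BCR-ABL1 line. Dcxr, a carbonyl reductase, had a log2 fold change of 0.03 ± 0.14.

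Of 6 DNA repair and nucleotide targets, all tested, 0 were called higher and 1 lower (16.7%, against 12.5% of all tested genes). The numbers were the same by edgeR at an unadjusted p under 0.05. The lower gene was Rrm2b, the p53-inducible subunit of ribonucleotide reductase that supplies nucleotides for repair, at chr15:37923952-37961318 on the minus strand. EV lines were at 46.6, 91.7 and 140 CPM and BCR-ABL1 lines at 41.1, 42.9 and 49.3 CPM. EV 2C held the lowest EV value and lay inside the BCR-ABL1 range, and EV 2B held the highest. The fall of the mean was 2.11-fold, with a log2 fold change of -1.08 ± 0.21 (edgeR adjusted p = 0.0268). It was -0.999 in mouse 1, where it was called, and -1.14 in mouse 2, where it was not (edgeR adjusted p = 0.262). Without EV 2C it was -1.21 (edgeR adjusted p = 0.000408), and without EV 2B or BCR-ABL1 1C, 2B or 2C the adjusted p lay between 0.0501 and 0.0529. Exons of Gm49085 on the opposite strand cover 8.04% of its exon length.

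Gadd45a, a stress protein of growth arrest and repair, had 5 to 14 counts in the EV lines of mouse 1, 67 to 302 in those of mouse 2 and 237 to 535 in the BCR-ABL1 lines. In CPM, EV lines were at 0.0722, 0.736 and 6.00 and BCR-ABL1 lines at 5.12, 7.24 and 10.3. The wide spread of the EV lines followed the mouse. The log2 fold change of 1.91 ± 0.98 was not called (edgeR adjusted p = 0.278), but with mouse as a block it was 2.97 (edgeR adjusted p = 0.0241). Within mouse 1 it was 5.09 and called, and within mouse 2 it was 1.27 and not called (edgeR adjusted p = 0.394). The calls with the block and in mouse 1 are descriptions. In both fits the gene needed the BCR-ABL1 lines, where it is high, to pass the filter. An opposite-strand transcript, E230016M11Rik, overlaps 19.1% of its exon length. Polk, a translesion polymerase, had a log2 fold change of 0.33 ± 0.06 and was higher only against no change (edgeR adjusted p = 0.00376). Ddb2, which recognises ultraviolet damage, had one of -0.36 ± 0.14 and was lower only against no change (edgeR adjusted p = 0.0451). Exons of Acp2 on the opposite strand cover 23.8% of those of Ddb2, and the strand setting of the counting is not given in the sources used here. Xpc and Ercc5, both of nucleotide excision repair, had log2 fold changes of 0.02 ± 0.06 and -0.28 ± 0.16.

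Of 5 targets of growth arrest and mitosis, all tested, 1 was called higher and 0 lower (20%, against 12.5% of all tested genes). At an unadjusted p under 0.05 in edgeR, 1 was higher and 2 lower. Psrc1, a microtubule-associated protein of the spindle, is at chr3:108383839-108388231 on the plus strand. It was at 14.3, 19.3 and 22.3 CPM in the EV lines and at 61.4, 64.5 and 69.9 CPM in the BCR-ABL1 lines. The 2 ranges were narrow and well apart in both mice. The means differed 3.43-fold, with a log2 fold change of 1.78 ± 0.10 (edgeR adjusted p = 3.2e-06), and it was 1.86 in mouse 1 and 1.73 in mouse 2. Ckap2, another spindle protein, whose promoter held the element with 2 mismatches, was at 50.4, 62.6 and 75.7 CPM in the EV lines and 80.2, 86.1 and 99.8 CPM in the BCR-ABL1 lines. The ranges did not overlap, but the log2 fold change of 0.48 ± 0.09 passed only the test against no change (edgeR adjusted p = 0.00155). For 12 genes of mitosis and proliferation outside the list, 0 were called by glmTreat or DESeq2 and 0 had an unadjusted glmTreat p under 0.05. Against no change 6 were higher, where 22.5% of all tested genes were higher. These 6 were Ccnb1, Ccnb2, Cdk1, Cdc20, Birc5 and Top2a, with log2 fold changes of 0.33 to 0.65. The median log2 fold change of the 12 was 0.31, with 0.08 in mouse 1 and 0.50 in mouse 2. By interaction, 6 of the 12 differed between the mice, where 16.9% of all tested genes differed.

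Btg2, an antiproliferative regulator of mRNA deadenylation, was at 24.6, 63.3 and 83.5 CPM in the EV lines and at 26.8, 34.8 and 38.8 CPM in the BCR-ABL1 lines. The lowest of all lines was EV 2C, and the other EV lines were at 56.8 CPM or more. Its log2 fold change of -0.86 ± 0.27 was not called (edgeR adjusted p = 0.211, against no change 0.00907). Plk2, a polo-like kinase that acts on centriole duplication, was at 0.126, 17.9 and 23.5 CPM in the EV lines and at 1.73, 3.04 and 3.73 CPM in the BCR-ABL1 lines. EV 2C had almost none, whereas EV lines of mouse 1 had 16.7 CPM or more. The log2 fold change of -2.29 ± 1.16 was not called either (edgeR adjusted p = 0.0978, against no change 0.026). Without EV 2C both were called lower, at -1.02 for Btg2 (edgeR adjusted p = 0.00376) and -2.55 for Plk2 (edgeR adjusted p = 0.00124), so that 4 members were lower, with 6 still higher, while 18.2% of all tested genes were called (8.83% higher and 9.35% lower). Plk3, a related stress kinase, had a log2 fold change of 0.09 ± 0.32, and EV 2C was its highest line at 10.7 CPM.

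**Figure D3:**
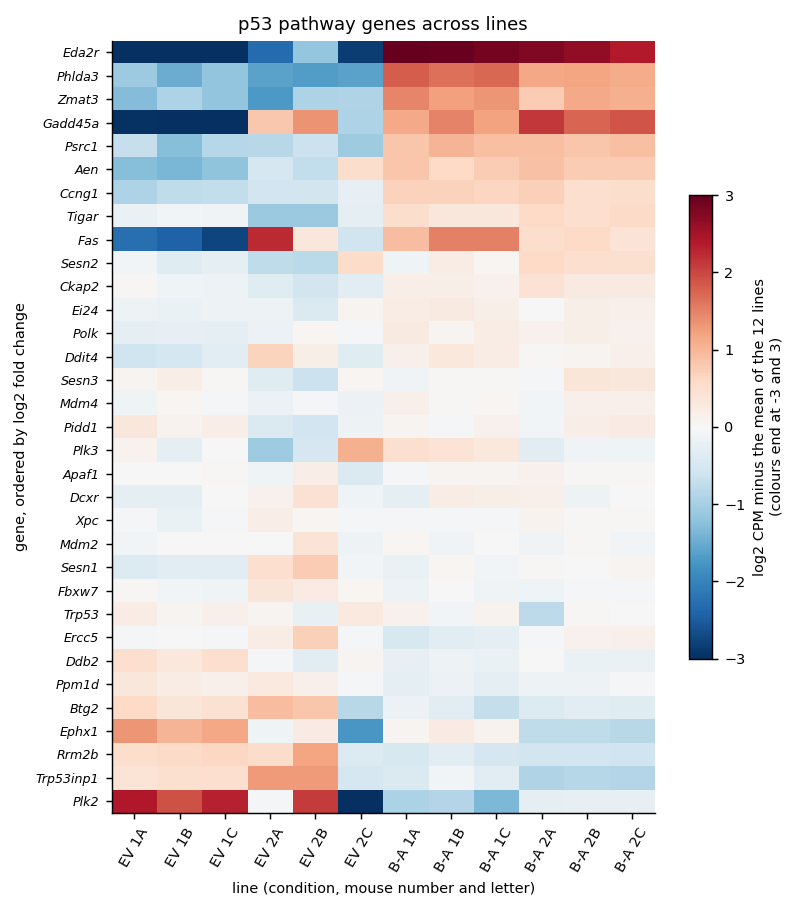
Level of the 33 tested genes (rows, ordered by log2 fold change) in the 12 lines (columns, B-A for BCR-ABL1), as log2 CPM minus the mean of the gene over all lines, with colours ending at -3 and 3. The BCR-ABL1 lines resemble each other, EV lines of mouse 1 and mouse 2 differ for Gadd45a and Fas, and EV 2C differs from the other EV lines for Plk2, Btg2, Ephx1 and Aen.

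The sum over the list gave another picture than the single genes. Summed over all 36 genes, the level was 1877, 2280 and 2944 CPM in the EV lines and 2145, 2273 and 2412 CPM in the BCR-ABL1 lines. The BCR-ABL1 range lay wholly within the EV range, and the ratio of means was 0.942. Trp53inp1 alone made up 19.6% to 44.1% of the sum in EV lines and 12.8% to 20.4% in BCR-ABL1 lines. With it left out, the sum in CPM was 1509 to 1675 for EV and 1863 to 1943 for BCR-ABL1 lines, and the ratio of means was 1.22. With Trp53inp1, Mdm4 and Ccng1 all left out, the sums were 1100 to 1272 CPM and 1280 to 1345 CPM. Without Trp53inp1 the ranges no longer overlapped. With all 36 genes the sum also differed by mouse, and in mouse 1 all BCR-ABL1 lines, at 2328 to 2412 CPM, lay above all EV lines, at 2238 to 2299 CPM. In mouse 2 the range was 1877 to 2944 CPM for EV and 2145 to 2219 CPM for BCR-ABL1 lines, with means of 2561 and 2191 CPM, so the ratio below 1 came from mouse 2. Per length of exon, as RPKM, which is CPM divided by the exon length in kilobases, the leading genes in EV lines were Trp53inp1 with a mean level of 130 RPKM, Ddit4 with 38.3 RPKM and Ccng1 with 36.9 RPKM. In BCR-ABL1 lines they were Ccng1 with 87.5 RPKM, Trp53inp1 with 55.4 RPKM and Ddit4 with 45.5 RPKM. On the same scale the genes with the largest folds were low, Eda2r at 0.997 RPKM, Zmat3 at 2.95 RPKM and Phlda3 at 12.8 RPKM in BCR-ABL1 lines.

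**Figure D4:**
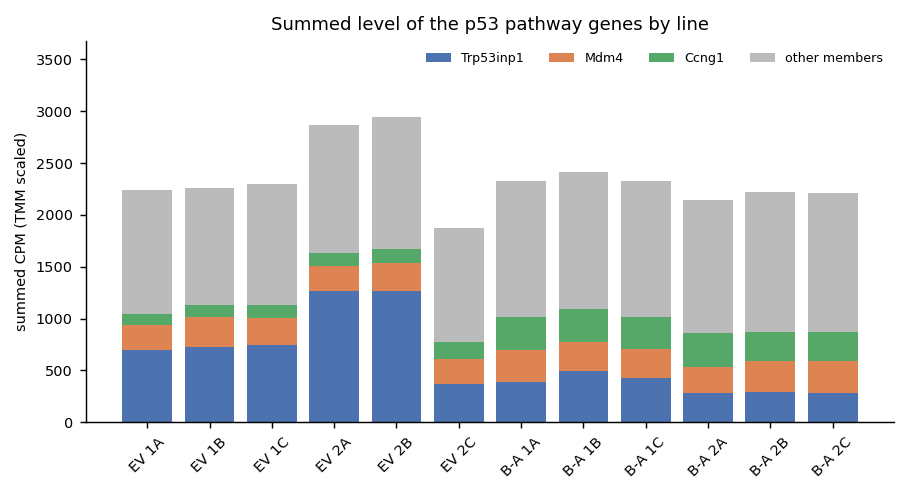
Summed level of the 36 genes in each line in CPM scaled by TMM (y axis from 0), for EV and BCR-ABL1 (B-A) lines by mouse number and letter, with Trp53inp1, Mdm4, Ccng1 and the other genes as stacked parts. The blue part of Trp53inp1 sets the tallest bars, EV 2A and 2B, and the sums of the BCR-ABL1 lines lie between 2145 and 2412 CPM.

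The conditions did not overlap for 10 of the 33 tested genes (30.3%), 9 higher in BCR-ABL1 lines and 1, Ppm1d, lower, and for 25.6% of all tested genes (12.1% higher and 13.5% lower). Within mouse 1, 8 members were called higher and 4 lower, where 28.5% of all genes were called (16.3% higher and 12.2% lower). Within mouse 2, 5 were higher and 0 lower by glmTreat (2 lower at an unadjusted p under 0.05), where 6.64% were called (3.99% higher and 2.65% lower). Those 5 were Ccng1, Zmat3, Phlda3, Eda2r and Psrc1, and they were also called in mouse 1. For Eda2r these calls are descriptions, since it passed the filter only through the BCR-ABL1 lines. The members higher within mouse 1 also hold Fas and Gadd45a, which passed there only through those lines, so that count is a description too. With mouse as a block in the model, 7 members were higher and 2 lower, where 14.7% of all tested genes were called (7.49% higher and 7.18% lower), and Gadd45a was the added gene. Its call is a description, since it needed the BCR-ABL1 lines to pass the filter. Fold changes had the same sign in both mice for 25 of 33 members.

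The effect differed between the mice for 6 of the 33 genes by the interaction of mouse and condition (edgeR glmQLFTest), 3 with a smaller and 3 with a larger value in mouse 2, where 16.9% of all tested genes differed (10.8% and 6.1%). The difference in log2 fold change, mouse 2 minus mouse 1, was -3.12 for Eda2r (adjusted p = 0.0158), -5.49 for Fas (0.00406) and -3.80 for Gadd45a (0.00446). These 3 genes had few or no reads in the EV lines of mouse 1 and needed the BCR-ABL1 lines to pass the filter. The sizes for Eda2r and Fas depend on the prior count. It was 0.60 for Ddb2 (adjusted p = 0.0276), 0.67 for Pidd1 (0.0205) and 0.48 for Ckap2 (0.0211). The number was 16 without EV 2C and 3 without EV 1A or BCR-ABL1 1B. Shares of all tested genes in these fits are not given here, so the numbers are not read as results about the members.

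EV lines also varied more than BCR-ABL1 lines. The standard deviation of log2 CPM was larger among EV lines for 30 of 33 members (90.9%) and for 80.7% of all tested genes, and for 87.9% and 72.9% without EV 2C. The median standard deviation of a member was 0.10 among EV lines of mouse 1 and 0.35 among those of mouse 2, against 0.09 and 0.07 among BCR-ABL1 lines. Over all tested genes these medians were 0.12 and 0.32 among EV lines and 0.10 and 0.12 among BCR-ABL1 lines.

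Genes around the list were read in the same test. Upstream of p53, 1 of 12 genes was called (8.33%, where 12.5% of all tested genes were called), namely Cdkn2a, at 0.230, 0.417 and 0.866 CPM in the EV lines and 24.99, 27.1 and 28.9 CPM in the BCR-ABL1 lines. It was near absent in all EV lines and present in all BCR-ABL1 lines, with a log2 fold change of 5.77 ± 0.34 (edgeR adjusted p = 2.03e-06). Counts per gene do not separate its products p16Ink4a and p19Arf. The damage kinases Atm, Atr, Chek1 and Chek2 had log2 fold changes between -0.03 and 0.40 and none was called. Against no change, 5 of the 12 were higher and 1 lower (50%, where 48.5% of all tested genes were called). Beside Cdkn2a these were Atm (log2 fold change 0.31), the deubiquitinase Usp7 (0.25) and the ribosomal proteins Rpl5 (0.34) and Rpl11 (0.35), which bind Mdm2, and the lower one was the ubiquitin ligase Rchy1 (-0.35).

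Of the 5 targets that the list leaves out, 2 were called higher (40%, where 5.99% of all tested genes were higher), Pmaip1 and Bbc3, which encode the BH3-only death proteins Noxa and Puma. DESeq2 called 1 of the 5, Bbc3 was called within mouse 1 only and Pmaip1 within mouse 2 only, and both effects differed between the mice by interaction (edgeR adjusted p = 0.00317 and 0.0246). The share of all tested genes called by DESeq2 is not given here. Bbc3 was at 7.08, 10.2 and 13.6 CPM in the EV lines and 19.1, 19.9 and 21.7 CPM in the BCR-ABL1 lines, a log2 fold change of 0.97 ± 0.17 (edgeR adjusted p = 0.0374). Pmaip1 was at 4.70 to 6.37 CPM in mouse 1 and 23.0 to 23.6 CPM in mouse 2 among BCR-ABL1 lines, and at 4.29 CPM or less in EV lines (log2 fold change 2.16 ± 0.58, edgeR adjusted p = 0.0255). Cdkn1a, the p21 inhibitor of cyclin-dependent kinases, Bax and Bid had log2 fold changes of 0.52 ± 0.19, 0.57 ± 0.09 and 0.76 ± 0.22 and were higher against no change (edgeR adjusted p = 0.0273, 0.000458 and 0.0109), and Bid was also called without EV 2C.

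Of 20 further p53 targets, 15 were tested, 2 were called higher and 0 lower (13.3%, where 12.5% of all genes were called). DESeq2 called 1 of them, again without a share of all tested genes to set beside it. Within mouse 1, 6 were higher, where 16.3% of all tested genes were higher, and within mouse 2, 1 was higher, where 3.99% were. Trp53i11, an inducible membrane protein, was at 117, 161 and 196 CPM in the EV lines and 277, 294 and 303 CPM in the BCR-ABL1 lines, without overlap (log2 fold change 0.88 ± 0.13, edgeR adjusted p = 0.0357). Rprm, the G2 arrest gene Reprimo, was at 0 to 0.521 CPM and 1.23 to 1.93 CPM (edgeR adjusted p = 0.012), with 0 to 17 counts in EV lines, so that it passed the filter only through the BCR-ABL1 lines. Against no change, 6 were higher and 2 lower (53.3%, where 48.5% of all tested genes were called). Beside Trp53i11 and Rprm the higher ones were Rps27l with a log2 fold change of 0.84 ± 0.19, Gtse1, which restrains p53 in G2, with 0.62 ± 0.13, the metalloreductase Steap3 with 0.57 ± 0.16 and the death receptor gene Tnfrsf10b with 1.26 ± 0.42. Ankra2 and Fdxr were the lower ones, at -0.58 ± 0.09 and -0.33 ± 0.11. Thbs1, the angiogenesis inhibitor thrombospondin-1, had 1404 and 1196 counts in EV 2A and EV 2B and at most 4 in each of the other 10 lines, and was not tested.

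**Figure D5:**
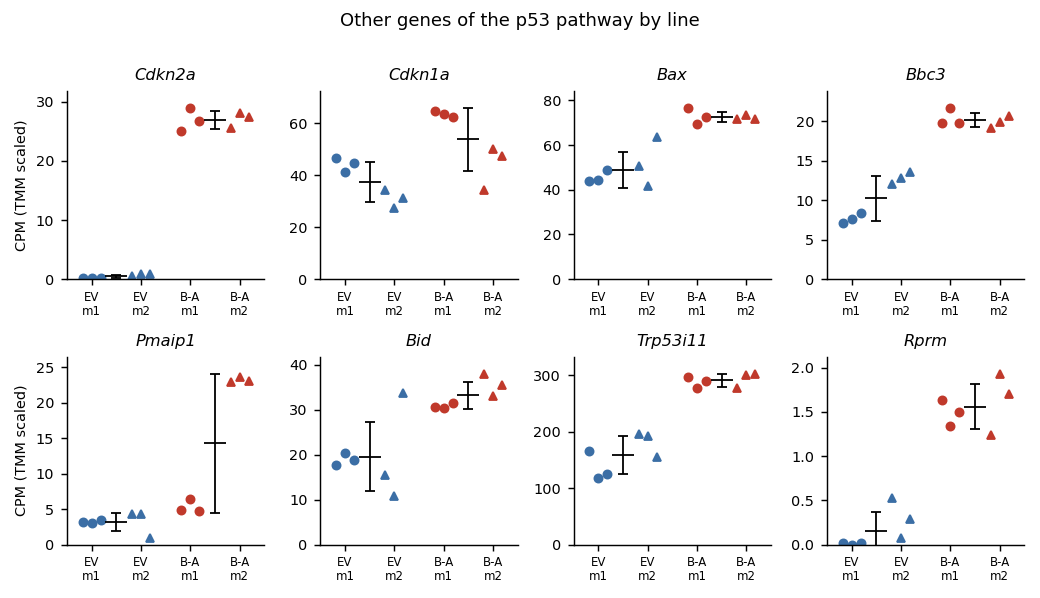
Level of 8 p53 pathway genes outside the list in each line, in CPM scaled by TMM from 0 (y axis), with circles for mouse 1, triangles for mouse 2, blue for EV, red for BCR-ABL1 (B-A), and black bars for the mean ± SD of the 6 lines of a condition. Cdkn2a is at 0.866 CPM or less in EV lines and at 24.99 CPM or more in BCR-ABL1 lines, and Pmaip1 separates the BCR-ABL1 lines by mouse.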

How the data were processed

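Total RNA of 12 lines was made into strand-specific libraries. Per the submitters' processing notes, FastQC 0.11.5, Trimmomatic 0.36, TopHat2 2.1.1, Bowtie2 2.3.2, featureCounts 1.5.3, R 3.6.1, edgeR 3.18.1 and genome build GRCm38 were used. The authors deposited whole-number counts per gene for each line, neither normalized nor pooled. The strand setting of the counting is not given in the sources used here.

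Counts were analysed in R 4.3.3 with edgeR 4.0.16 (filterByExpr, TMM, quasi-likelihood glmTreat against 1.5-fold, Benjamini-Hochberg threshold 0.05) on all 12 lines, with condition as the only term. The study's text states glmTreat with these thresholds and a likelihood ratio fit, and the other settings were chosen here. Interactions of mouse and condition used glmQLFTest. Standard errors came from the spread of log2 CPM (prior count 2) between lines, and the floor of 3 counts covers counting error only. Symbols, exon lengths and positions came from GENCODE M21, which matched 51633 identifiers. Figures were made in Python 3.11.15 (matplotlib 3.10.9).

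Members and lists were chosen with earlier results of these data known. Named genes are all 36 members and, from the other lists, genes called in a test or setting a range, of which those called only within a mouse, with a block or by interaction are mostly given as counts. Defining markers, the damage kinases and Thbs1 were named beyond this rule, Thbs1 after its counts were seen.

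The alternatives were normalization by RLE, all genes with a count, genes at 1 CPM or more in 6 lines, the likelihood ratio fit, DESeq2 1.42.0, glmQLFTest against no change, a replicate block of mouse or of line number, each mouse alone and each line left out. The block of mouse combined with the test against no change was added after seeing the data. By the labels, lines with the same first digit come from the same mouse. Deviations from condition means had correlations of 0.0853 to 0.240 within a mouse and of -0.203 to -0.0636 across mice, so the mouse pairs the lines. With mouse means removed, those of lines with the same letter were -0.109 to 0.0856, and the letter does not pair them. On simulated counts, glmTreat recovered 191 of 200 changed genes among 14917 and called 1 other. The interaction test recovered 177 of 200 among 14932 and called 9 others. The simulated lines had no shared mouse effect and 1 spread per gene for both conditions, unlike the lines here. The smallest planted log2 change was 1.5 in size, more than that of several called genes. Recovery of smaller changes, or under the spread seen here, was not tested.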

Additional observations from a re-analysis of the deposited data

Results flagged for a closer look

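Among 66 groups of 6 lines, one per gene and condition, 4 held a line far from the others by Dixon's test, and chance flags about 1 in 20 groups. Trp53 was at 44.2 CPM in BCR-ABL1 2A, where the other BCR-ABL1 lines were at 71.5 to 82.5 CPM. Mdm2 was at 110 CPM in EV 2B, where the other EV lines were at 74.8 to 83.7 CPM. In EV 2C, Btg2 was at 24.6 CPM against 56.8 to 83.5 CPM in the other EV lines, and Plk2 at 0.126 CPM against 4.32 to 23.5 CPM.

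The log2 effect of BCR-ABL1 differed between the mice for 6 of 33 genes by the test of interaction (edgeR glmQLFTest), where 16.9% of all tested genes differed. With 1 line left out the number was 3 to 16, for which shares of all tested genes are not given here. The difference, mouse 2 minus mouse 1, was -3.12 for Eda2r (adjusted p = 0.0158), -5.49 for Fas (0.00406), -3.80 for Gadd45a (0.00446), 0.60 for Ddb2 (0.0276), 0.67 for Pidd1 (0.0205) and 0.48 for Ckap2 (0.0211). Eda2r and Gadd45a were higher in both mice by value, whereas Fas had opposite signs. EV lines of mouse 1 held at most 3 counts of Eda2r and at most 2 of Fas. Eda2r, Fas and Gadd45a needed the BCR-ABL1 lines to pass the filter.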

How the results depend on the processing

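Fold changes of the 8 called members kept their sign under every setting run, and Ccng1, Zmat3, Phlda3, Eda2r and Psrc1 were called in each. Among members not called, the sign of Mdm2, Sesn1, Sesn3, Fas, Ddit4, Xpc, Plk3, Pidd1 and Dcxr turned in 1 or more settings. RLE normalization and the filter at 1 CPM in 6 lines changed no call, though the filter left Fas untested. The likelihood ratio fit added Plk2, and without a gene filter Trp53inp1 lost its call. In the test against no change, 11 members were higher and 6 lower in place of 6 and 2, and 3389 genes were higher and 3897 lower in place of 901 and 976. DESeq2 against 1.5-fold called 5 members higher and 0 lower (3 lower at an unadjusted p under 0.05), without Aen, Trp53inp1 and Rrm2b, and the cause was not tested. How many of all tested genes DESeq2 called is not given here, so these counts are descriptions.

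With mouse as replicate block, 7 members were higher and 2 lower, with 1126 genes higher and 1080 lower. Gadd45a, which needed the BCR-ABL1 lines to pass the filter, was the only call that changed. Combined with the test against no change, which was added after seeing the data, it gave 11 and 8 members and 3776 and 4092 genes. The block of line number left 0 members lower, and only 2 calls, Trp53inp1 and Rrm2b, were lost. In the lines of mouse 1, 4 members were lower, with 2512 genes higher and 1877 lower, and in those of mouse 2, 0 members and 408 genes were lower, with fewer lines in each fit.

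Leaving out each line in turn gave 0 to 4 members lower, 807 to 1353 genes higher and 3 to 16 members with a difference between the mice. How many of all tested genes differed between the mice in these fits is not given here. Members lower were 4 without EV 2C, 2 without BCR-ABL1 1B, 1 without EV 1A, 1B, 1C or 2A or BCR-ABL1 1A or 2A, and 0 without EV 2B or BCR-ABL1 1C, 2B or 2C. The summed level of the 36 genes in BCR-ABL1 over EV lines was 0.942, and 1.22 with Trp53inp1 left out. Depth limits Perp, Dram1, Trp73 outside EV 2C, and Eda2r and Fas in the EV lines of mouse 1, all near or under 3 counts in most of these lines.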
